A study of Homo sapiens with 8 samples.

Results

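Ginkgolic acid was set against its solvent DMSO in a derivative of MCF10A that is labelled as overexpressing the intracellular domain of NOTCH1. MCF10A is an established non-tumorigenic human mammary epithelial line, and it was grown with insulin, epidermal growth factor, cholera toxin, hydrocortisone and horse serum. Cells received 30 µM ginkgolic acid or DMSO for 3 days, with 2 samples per group, and the deposited table holds 1 FPKM value (fragments scaled by transcript length and library size) per gene and group. The genes described are the rows that carry a single symbol, lie on chromosomes 1 to 22, X or M, have a symbol listed once, and reach 5 FPKM in either group. These are 10766 genes of 59662 rows, and of 11923 genes that meet the same rule in either table of the series. A ratio could be formed for 9959 of them. The other members were listed at 0 with ginkgolic acid (481 genes) or with DMSO (326 genes). Just inside the threshold lay AARS2 at 5.001 FPKM in its higher group, and just outside lay CBR3 at 4.999 FPKM.

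The series also holds 2 DMSO and 2 ginkgolic acid samples of MCF10A itself, 8 samples in all. The labels do not say whether samples of a group came from separate cultures, whether the derivative is a single clone, or which promoter drives the transgene. Because each group has 1 value, no replicate error can be had, no difference was tested, and the depth behind each value is unknown. Differences are described by size, as at least 2-fold higher or lower with ginkgolic acid. NOTCH1 itself (chromosome 9, 139388896 to 139440370, hg19) was at 12.4 FPKM after ginkgolic acid and 5.03 FPKM after DMSO, while MCF10A had 11.4 FPKM with DMSO. This goes against the label, although a whole-gene value does not separate the intracellular domain and the tables were normalized separately, so the cells are called NOTCH1-labelled. All 12 basal mammary markers with a row of their own reached 5 FPKM, with 990.2 FPKM for the basal keratin KRT5 under DMSO. Of 7 endothelial markers 0 did, and of 9 leukocyte markers 2 did, PTPRC at 6.15 and 2.28 FPKM and CD14 at 4.44 and 6.66 FPKM, with CD3D listed at 0 under DMSO. Summed leukocyte marker FPKM was 17.1 with ginkgolic acid and 16.9 with DMSO, and that of 8 fibroblast markers 68.5 and 89.8.

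SUMO is a small protein that a cascade of an activating enzyme (SAE1 with UBA2), a conjugating enzyme and several ligases attaches to other proteins. Ginkgolic acid, an alkylphenol of Ginkgo biloba, blocks the first of these steps. NOTCH1 is a receptor whose intracellular domain, once cut free by gamma-secretase, enters the nucleus, joins RBPJ and switches on genes such as HES1. Many SUMO targets are transcription factors and chromatin proteins, so gene families were described across the whole transcriptome.

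At this minimum, genes higher with ginkgolic acid outnumbered those lower. Of the 9959 genes, 1933 (19.4%) were higher by 2-fold or more and 977 (9.81%) were lower by as much. At least 4-fold apart were 527 higher and 258 lower, and at least 8-fold apart 170 and 89. The median log2 ratio of ginkgolic acid over DMSO was 0.24, with quartiles at −0.35 and 0.83. Family medians below are to be read against this shift, and family counts against the shares of 19.4% and 9.81%. Of the genes beyond 2-fold, 66.4% were higher, but 49.6% with the median removed (1381 higher and 1403 lower) and 49.7% at a minimum of 1 FPKM (3682 higher and 3729 lower). The minimum of 5 FPKM itself acts on these counts. Of 8009 genes that reached it in both groups, 1204 were at least 2-fold higher and 462 lower. Of 1060 that reached it only with ginkgolic acid, 729 were at least 2-fold higher, and of 890 that reached it only with DMSO, 515 were at least 2-fold lower. For families with many members of the second kind, the count in genes that reached the minimum in both groups is given too. In these bulk samples, more cells of a kind and more RNA per cell cannot be told apart.

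**Figure D1:**
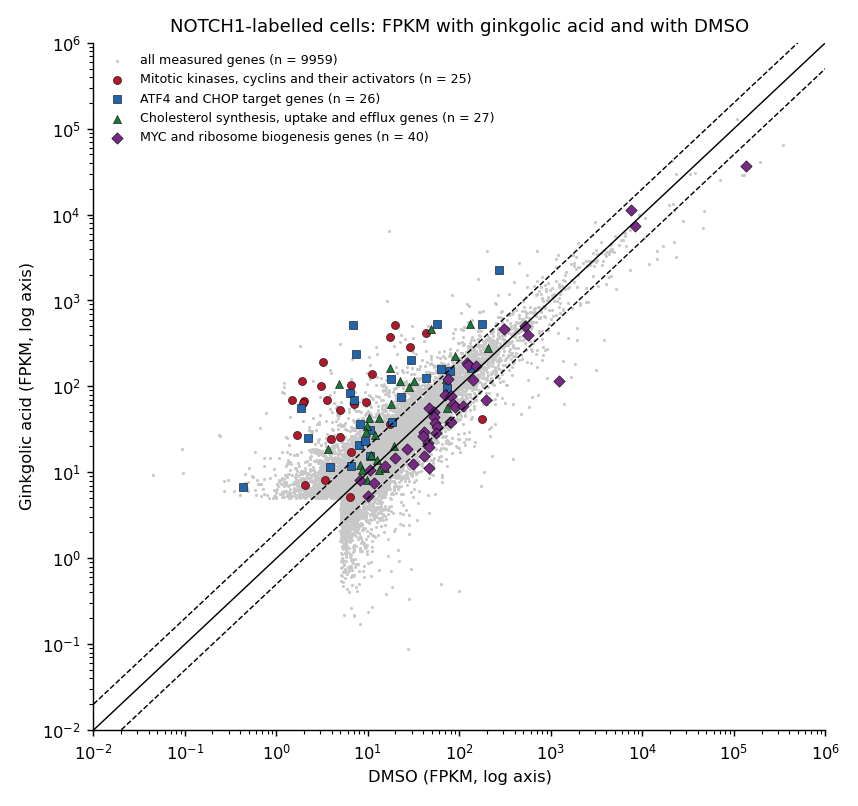
FPKM with ginkgolic acid (vertical, log axis) against FPKM with DMSO (horizontal, log axis) in NOTCH1-labelled cells, 1 point per gene, each value being the authors' single value for a group of 2 samples. The solid line marks equal values and the dashed lines 2-fold; 23 of 25 mitotic kinase and cyclin genes lie above the upper dashed line, and 10 of 40 MYC and ribosome biogenesis genes lie below the lower one.

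The members with the largest ratios were of mixed kind. POFUT1, the O-fucosyltransferase of Notch receptors, stood highest at 6365 FPKM after ginkgolic acid and 16.8 FPKM after DMSO, and it holds an annotated small RNA. AGAP8, of a family of near-identical copies, was at 9.43 and 0.0446 FPKM, and HIST1H3F, a histone gene, at 26.9 and 0.234 FPKM, so that both had almost no value with DMSO. TROAP, a spindle-associated protein gene (chromosome 12, 49686414 to 49725514), was at 86.7 and 1.15 FPKM, and DEPDC1 at 84.9 and 1.22 FPKM. At the low end, CD22, a lectin of B cells, was at 0.0887 and 27.6 FPKM and CELSR3, an atypical cadherin, at 0.418 and 99.6 FPKM, and both hold annotated small RNAs. LTF, the secreted iron-binding protein lactotransferrin (chromosome 3, 46477136 to 46526724), stood at 0.339 and 28.1 FPKM without one. NDUFA4L2, a hypoxia-responsive mitochondrial protein gene, was at 0.744 and 29.5 FPKM. SFTPD, the collectin surfactant protein D, was at 0.463 and 18.1 FPKM. SLC9A3R1, which encodes the apical scaffold NHERF1, was at 6.87 and 174 FPKM. Here and below, paired values give ginkgolic acid first and DMSO second. Of the genes named below, AARS, AHR, BBC3, CALR, CDK4, CGN, CLIC4, COL17A1, COX7C, DNAJB1, DTL, ELOVL6, EPCAM, FADS3, FANCD2, FSTL1, GINS3, HSPA8, IL32, JAG1, KRT15, LATS2, LINC00152, MALAT1, MARS, MND1, NCL, NDUFS8, NEAT1, NOP56, NOTCH1, NPC1, PCNA, PLAUR, QARS, RB1, RPL23A, RPL5, RPL7A, SENP1, SENP6, SKA2, SLC43A2, SNHG16, SOD2, TARS2, TP63, TUBA1C, WDR43 and WEE1 also hold annotated small RNAs, whose reads are not told apart from those of the gene.

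Across 48 families of at least 5 genes with a ratio, 44 medians lay above 0 and 4 below it. A median of at least 1 was found in 11 families and a median of −1 or less in 0. The highest of these medians belonged to genes of mitosis, histones, the integrated stress response, recombination and checkpoints, and cholesterol.

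**Figure D2:**
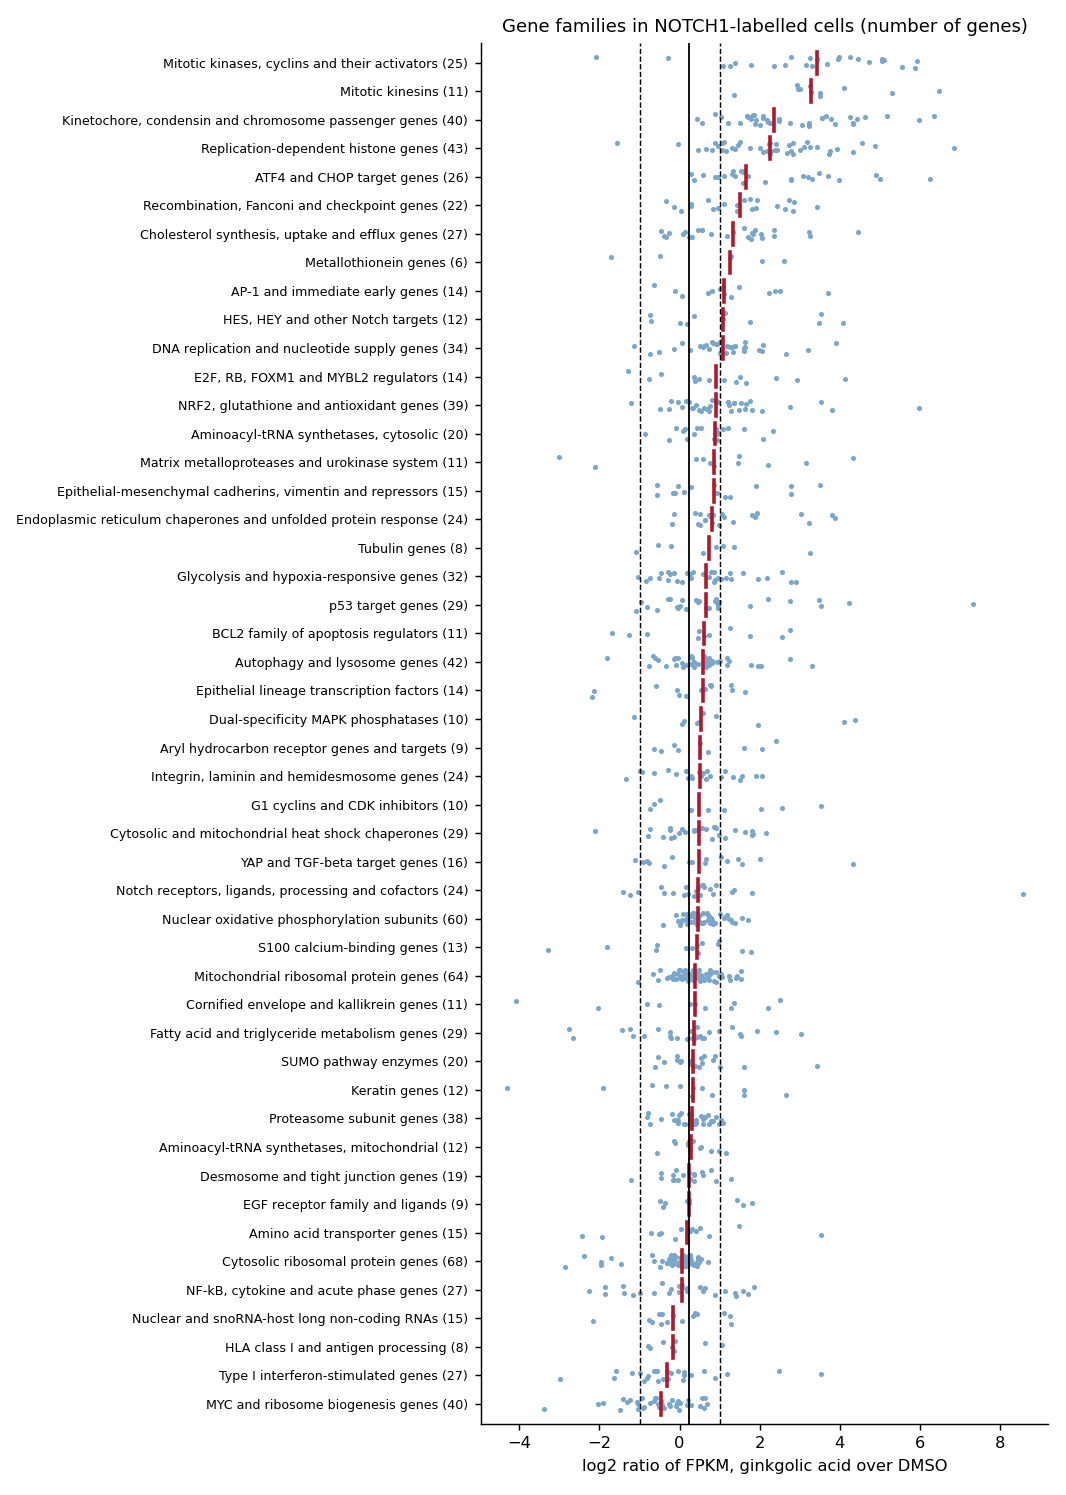
Log2 ratio of FPKM, ginkgolic acid over DMSO, for each measured member (blue point) of the 48 families, with the family median as a red bar and the number of genes in brackets. The solid line marks the median of all genes, 0.24, and the dashed lines 2-fold; mitotic kinases have the highest median, 3.43, and MYC and ribosome biogenesis genes the lowest, −0.47.

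Nearly every measured mitotic gene was higher with ginkgolic acid. Among kinases, cyclins and their activators, 23 of 25 were higher by 2-fold or more and 1 was lower by as much, with a median log2 ratio of 3.43. Only 12 of these 25 reached 5 FPKM with DMSO as well, and of those 12, 10 were at least 2-fold higher and 1 lower. UBE2C, the ubiquitin-conjugating enzyme of the anaphase-promoting complex (chromosome 20, 44441215 to 44445596), was at 115 FPKM after ginkgolic acid and 1.897 FPKM after DMSO, a 60.8-fold difference. NEK2, a kinase of centrosome separation, was at 189.9 and 3.24 FPKM, and TTK, the spindle checkpoint kinase, at 70.1 and 1.49 FPKM. The cyclins that drive entry into mitosis shared the direction of their kinase. CCNA2 was at 68.4 and 1.98 FPKM, CCNB1 at 377 and 17.2 FPKM and CDK1 at 521 and 19.8 FPKM. Both groups were well above 5 FPKM for the last pair. AURKA, which matures the spindle poles, was at 103 and 6.58 FPKM. The member lower by 2-fold or more was WEE1, the kinase that holds CDK1 inactive, at 41.96 and 177 FPKM. CDC25B, which opposes WEE1, had a log2 ratio of 1.07.

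Kinesin motors of the spindle had a median of 3.29, and 11 of 11 were higher by 2-fold or more and 0 were lower by as much. KIF2C, a microtubule depolymerase at centromeres, was at 154 and 3.89 FPKM. CENPE, which carries chromosomes to the plate, was at 39.7 and 3.48 FPKM, and KIF11, which pushes spindle poles apart, at 27.8 and 3.57 FPKM. KIF20B had the smallest ratio, with 30.1 and 11.7 FPKM, and it and KIF22 alone reached the minimum in both groups. Among kinetochore, condensin and passenger genes, 37 of 40 were higher by 2-fold or more and 0 were lower by as much, with a median of 2.36, and of the 22 that reached 5 FPKM in both groups 20 were higher. HMMR, a spindle assembly factor, was at 142 and 3.92 FPKM, TPX2, the activator of AURKA, at 75.1 and 3.02 FPKM, and ANLN, the scaffold of the contractile ring, at 219 and 10.2 FPKM. BIRC5, the survivin gene, was at 78.7 and 3.88 FPKM. The smallest ratios were those of SKA2, 0.45, and MIS12, 0.57.

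Promoters of mitotic genes are known for a pair of short elements, the cell cycle genes homology region (CHR), bound by the MuvB and DREAM complexes, and the CCAAT box, bound by NF-Y. The 250 bases before the start are shown for the members with the highest ratio in the kinetochore and the kinase family among those that have 1 RefSeq window and hold both elements there, DLGAP5, a spindle protein gene at 98.6 and 1.21 FPKM, and for PLK1, at a log2 ratio of 5.06. Sequences are RefSeq's (GRCh38.p14), written 5′ to 3′ on the strand of the gene, and capitals mark CHR letters (TTTGAA or TTCGAA) and CCAAT on either strand. DLGAP5 lies on the minus strand at chr14:55191586-55191835 and holds 2 matches to each, and PLK1 on the plus strand at chr16:23678639-23678888 with 1 match to each.
DLGAP5: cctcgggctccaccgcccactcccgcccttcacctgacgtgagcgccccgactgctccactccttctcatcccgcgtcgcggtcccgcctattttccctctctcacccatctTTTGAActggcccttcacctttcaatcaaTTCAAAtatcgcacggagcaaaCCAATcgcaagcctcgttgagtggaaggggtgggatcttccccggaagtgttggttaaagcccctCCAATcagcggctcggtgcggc
PLK1: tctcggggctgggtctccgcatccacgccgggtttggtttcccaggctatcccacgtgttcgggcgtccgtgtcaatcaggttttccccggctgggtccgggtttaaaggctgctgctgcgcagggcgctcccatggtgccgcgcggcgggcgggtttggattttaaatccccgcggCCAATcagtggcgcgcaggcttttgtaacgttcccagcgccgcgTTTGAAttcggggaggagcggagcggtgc
Over windows of 300 bases (250 before the start and 50 after it), 16.7% of the 7112 measured genes with a RefSeq window held the CHR letters, and 19.5% of all 27305 genes of the RefSeq table. The shares were 72.7% of kinetochore and condensin genes (24 of 33), 72.7% of kinesin genes (8 of 11) and 66.7% of mitotic kinase and cyclin genes (12 of 18). For CCAAT, found in 44.0% of measured genes and 39.7% of the table, these families had 66.7%, 72.7% and 88.9%. The genes above and below DMSO by 2-fold or more held CHR letters equally often, 20.4% each, and the share was 32.1% in genes above it by 4-fold or more. Short letters recur by base composition, and a match shows no binding.

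Genes that copy DNA were also higher in part. Of the replication and nucleotide supply genes, 19 of 34 were higher by 2-fold or more and 1 was lower by as much, with a median of 1.08; of 22 that reached 5 FPKM in both groups, 9 were higher. ORC1, of the origin recognition complex, was at 6.23 and 0.981 FPKM, RFC4, of the clamp loader, at 102 and 24.03 FPKM, and MCM2, of the replicative helicase, at 25.4 and 11.4 FPKM. PCNA, the sliding clamp, was nearly level at 27.8 and 30.3 FPKM. The member at least 2-fold lower was GINS3, at 5.25 and 11.6 FPKM. DTL, which with CUL4 marks the licensing factor CDT1 for destruction, was at 17.04 and 1.85 FPKM. Its promoter (plus strand, chr1:212035498-212035747) ends in the E2F letters TTTGGCGC, in capitals.
DTL: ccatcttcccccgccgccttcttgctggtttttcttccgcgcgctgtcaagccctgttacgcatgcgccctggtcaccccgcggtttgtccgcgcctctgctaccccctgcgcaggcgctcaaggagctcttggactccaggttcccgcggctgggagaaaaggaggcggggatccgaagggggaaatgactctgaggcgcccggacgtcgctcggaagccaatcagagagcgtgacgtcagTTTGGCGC
The E2F letters searched, TTTCCCGC or TTTGGCGC, were in 53.3% of replication gene windows (16 of 30), in 4.56% of measured genes and in 2.75% of the RefSeq table. Only 10.0% of replication gene windows (3 of 30) held CHR letters.

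Histone genes of S phase, whose transcripts lack a poly(A) tail, had a median log2 ratio of 2.27, and 36 of 43 were higher by 2-fold or more and 1 was lower by as much. Of the 33 that reached the minimum in both groups, 26 were higher. Besides HIST1H3F, given above, HIST1H3B was at 98.1 and 3.31 FPKM and HIST2H2AB at 286 and 12.2 FPKM. The smallest ratios were those of HIST1H4E, at 40.5 and 41.7 FPKM, and HIST1H4L, at 18.5 and 13.5 FPKM, and the member that was at least 2-fold lower was HIST4H4, at 9.89 and 29.1 FPKM. Histone genes are near-identical copies, so reads can be split between them. Recombination, Fanconi and checkpoint genes had a median of 1.52, and 14 of 22 were higher by 2-fold or more and 0 were lower by as much. FANCI was at 73.3 and 11.02 FPKM and FANCD2 at 22.98 and 3.72 FPKM, and this pair forms the complex that is ubiquitinated at crosslinks. The damage kinase gene ATR, with a log2 ratio of 0.05, and BRCA1, with 1.12, had smaller differences. Only 10 of the 22 reached the minimum in both groups, and of these MND1, FANCI, EXO1 and BARD1 were higher.

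Several regulators of these families were higher too. MYBL2, which joins MuvB to activate late cell cycle genes, was at 6.103 and 0.346 FPKM, FOXM1, which follows it, at 13.5 and 2.55 FPKM, and the repressor gene E2F7 at 9.41 and 1.24 FPKM. Over the whole set of E2F, RB, FOXM1 and MYBL2 regulators, 7 of 14 were higher by 2-fold or more and 1 was lower by as much, and the last was E2F4, at 11.2 and 27.2 FPKM. Of the 8 that reached the minimum in both groups, LIN9, at 20.1 and 7.53 FPKM, and RB1, at 27.6 and 12.9 FPKM, were higher. Of the genes that govern G1, 4 of 10 were higher by 2-fold or more and 0 were lower by as much. CDKN1B, which encodes the inhibitor p27, was at 98.1 and 23.9 FPKM, CDK2 at 27.6 and 4.66 FPKM and CDKN2C at 11.6 and 5.34 FPKM, and CCND1, the G1 cyclin, at 6.86 and 11.4 FPKM. CDKN1B, CDK2, CDKN2C and CDKN1A were the higher members, and CCND1 was within 2-fold. CDK4 was level, with a log2 ratio of 0.27. Among tubulins, TUBA1B was at 46.4 and 4.86 FPKM, TUBA1C at 46.4 and 18.2 FPKM and TUBE1 at 27.01 and 12.6 FPKM, whereas TUBB6 was at 22.5 and 47.9 FPKM. The other 4 of 8 were within 2-fold. Tubulin genes share long stretches of sequence, so their values are uncertain.

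Of the p53 targets, 7 of 29 (24.1%) were higher by 2-fold or more and 1 was lower by as much, with a median of 0.66. That share is near the 19.4% over all genes. Of the 24 that reached the minimum in both groups, 5 were higher and 1 lower. SESN2, a stress-induced regulator of TORC1, was at 24.9 and 2.21 FPKM and PMAIP1, which encodes the death protein NOXA, at 101 and 14.8 FPKM. MDM2, a ubiquitin ligase and classical target, was near level at 487 and 483 FPKM. The lower member was C12orf5, which encodes TIGAR, at 9.37 and 19.9 FPKM. In the BCL2 family, which sets the threshold for apoptosis, both kinds of member were higher. The protective genes MCL1, at 343 and 144 FPKM, and BCL2L1, at 22.9 and 3.87 FPKM, were at least 2-fold higher, as were the death-promoting genes PMAIP1 and BBC3, the latter at 36.2 and 10.7 FPKM. BIK, at 5.72 and 18.5 FPKM, and HRK, at 2.71 and 6.45 FPKM, were at least 2-fold lower.

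The integrated stress response, in which phosphorylated eIF2α slows translation and favours that of ATF4, had the highest family median outside the cell cycle. Of the ATF4 and CHOP targets, 21 of 26 were higher by 2-fold or more and 0 were lower by as much, with a median of 1.66, and all but 4 of the 26 reached the minimum in both groups. PPP1R15A, the phosphatase subunit that closes the loop on eIF2α (chromosome 19, 49375649 to 49379318), was at 237 FPKM after ginkgolic acid and 7.38 FPKM after DMSO. CHAC1, which breaks down glutathione, was at 6.77 and 0.426 FPKM, and ATF3, a partner and target of ATF4, at 82.95 and 6.35 FPKM. ATF4 itself was at 532 and 175 FPKM and ASNS, asparagine synthetase, at 74.97 and 22.95 FPKM. CLIC4 and ERO1L lay closest to level, with log2 ratios of 0.37 and 0.28. Transfer RNA synthetases of the cytosol, several of which are ATF4 targets, had a median of 0.87, and 5 of 20 were higher by 2-fold or more and 0 were lower by as much. All 20 reached the minimum in both groups. AARS, for alanine, was at 107 and 21.2 FPKM, GARS, for glycine, at 206 and 48.7 FPKM, and YARS, for tyrosine, at 211 and 69.8 FPKM. MARS, at 156 and 67.5 FPKM, and TARS, at 514 and 244 FPKM, completed the 5. QARS, for glutamine, was level at 233 and 219 FPKM. The mitochondrial synthetases had a lower median of 0.28, and TARS2, at 42.4 and 18.8 FPKM, was the 1 of 12 at least 2-fold higher.

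The C/EBP-ATF response element (CARE, searched as TGATGNAA) is the site through which ATF4 acts. Windows with the CARE letters made up 42.9% of cytosolic synthetase genes (6 of 14), 38.5% of amino acid transporter genes (5 of 13) and 25% of ATF4 and CHOP targets (5 of 20). The share was 2.94% over measured genes and 4.46% over the RefSeq table. Amino acid transporters showed no common direction. Of these, 2 of 15 were higher by 2-fold or more and 2 were lower by as much, and the median of 0.19 was −0.053 with the median of all genes removed. Of the 11 that reached the minimum in both groups, 1 was higher and 0 were lower. Both lower genes reached it only with DMSO, and the other higher one only with ginkgolic acid. SLC7A11, the cystine carrier, was at 31.5 and 2.73 FPKM, and SLC3A2, its heavy chain, at 3376 and 1199.9 FPKM. SLC7A7 and SLC43A2 were lower, at 1.38 and 7.43 and 4.02 and 15.2 FPKM.

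Genes of the endoplasmic reticulum stress response were higher in part. Of the chaperones and response genes, 10 of 24 were higher by 2-fold or more and 0 were lower by as much, with a median of 0.82. HERPUD1, of the degradation machinery (chromosome 16, 56965960 to 56977798), was at 359.7 and 25.6 FPKM, DNAJB9, a co-chaperone of BiP, at 328 and 22.4 FPKM, and CREB3L2, a membrane-bound transcription factor, at 13.2 and 1.405 FPKM. EDEM1, which sends misfolded glycoproteins to degradation, was at 29.4 and 7.72 FPKM. The abundant lectin chaperone CANX was level at 986 and 1082 FPKM. The promoter of DNAJB9 (plus strand, chr7:108569624-108569873) is shown because this gene had the highest ratio of its family, with its CCAAT box in capitals.
DNAJB9: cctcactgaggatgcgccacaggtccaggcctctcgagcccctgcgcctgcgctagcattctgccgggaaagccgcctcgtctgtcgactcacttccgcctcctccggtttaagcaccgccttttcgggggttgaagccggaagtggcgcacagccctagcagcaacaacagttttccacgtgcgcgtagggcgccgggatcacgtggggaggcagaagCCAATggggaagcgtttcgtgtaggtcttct
CCAAT was in 95.2% of the windows of this family (20 of 21). Heat shock chaperones of cytosol and mitochondria had a median of 0.49, and 7 of 29 were higher by 2-fold or more and 1 was lower by as much. DNAJB1, a co-chaperone and classical HSF1 target, was at 161 and 36.2 FPKM, CRYAB, a small heat shock protein gene, at 22.9 and 6.52 FPKM, and HSF2 at 23.4 and 6.72 FPKM. HSPA8, the constitutive HSP70, was the lower one, at 10861 and 47153 FPKM. STIP1 and CCT5 had log2 ratios of −0.01 and 0.06. The heat shock element, searched as the units TTC, GAA and TTC with a gap of 2 bases between units, was in 22.2% of the windows of this family (6 of 27), in 0.478% of measured genes and in 0.608% of the RefSeq table.

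**Figure D3:**
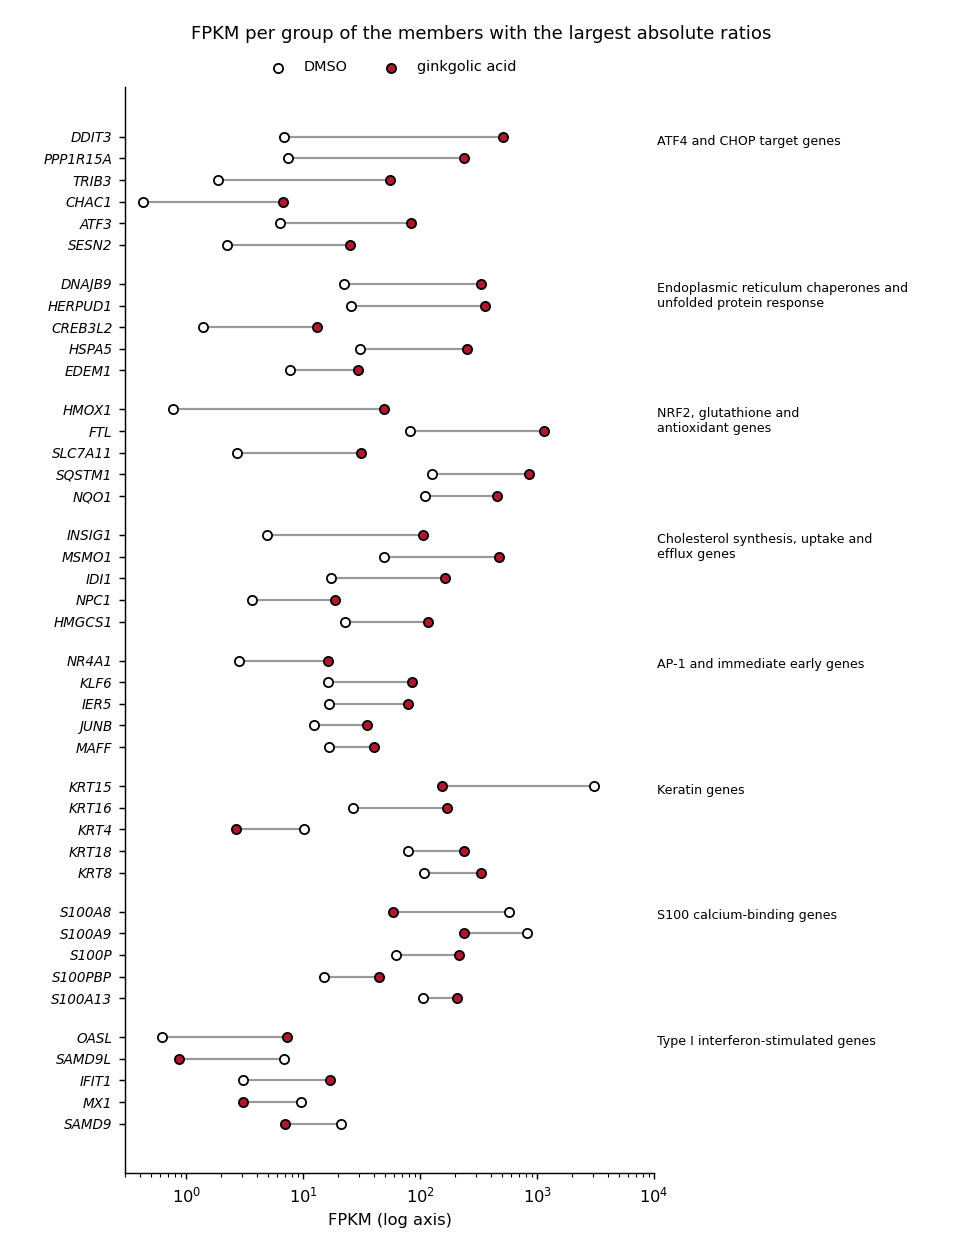
FPKM per gene (horizontal, log axis) with DMSO (open circle) and ginkgolic acid (filled circle) for the members with the largest absolute log2 ratios in 8 families of NOTCH1-labelled cells, 1 value per group of 2 samples. Stress, antioxidant, cholesterol and immediate early genes have the filled circle to the right, while keratin, S100 and interferon genes show both orders.

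Of the NRF2, glutathione and antioxidant genes, 17 of 39 were higher by 2-fold or more and 1 was lower by as much, with a median of 0.90, and the other 21 were within 2-fold. NQO1, a quinone reductase and standard NRF2 target, was at 455 and 109 FPKM, SQSTM1, an autophagy receptor that also binds KEAP1, at 856 and 126 FPKM, and GCLM, of glutathione synthesis, at 20.4 and 7.01 FPKM. KEAP1, the inhibitor of NRF2, was level at 14.6 and 14.98 FPKM. The antioxidant response element through which NRF2 acts, searched as TGACNNNGC, was in 29.03% of the windows (9 of 31), in 19.6% of measured genes and in 16.1% of the RefSeq table. SOD2, the mitochondrial dismutase, was the lower member, at 1939 and 4499.6 FPKM. Metallothioneins bind zinc and copper. With their regulators, 4 of 6 genes with a ratio were higher and 1, MTF1, was lower. MT2A was at 2717 and 444 FPKM, MT1E at 1704 and 703 FPKM and MT1F at 6.47 and 1.55 FPKM, while MT1X was at 101 and 141 FPKM. SLC30A1, a zinc exporter, was at 38.3 and 16.1 FPKM, MTF1, their transcription factor, at 2.34 and 7.67 FPKM, and MT1B was listed at 0 with ginkgolic acid and 9.70 with DMSO. Among aryl hydrocarbon receptor targets, CYP1A1 was at 9.54 and 1.79 FPKM, TIPARP at 68.3 and 22.4 FPKM, and these with NQO1 made 3 of 9 higher. CYP1B1, another target, was at 9.51 and 14.7 FPKM and the receptor gene AHR at 30.6 and 31.2 FPKM.

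Transcripts of the SUMO pathway, which ginkgolic acid acts on at the protein level, were mostly within 2-fold. Of its enzymes, 3 of 20 were higher by 2-fold or more and 0 were lower by as much, with a median of 0.33. Among the 3, SENP1, a SUMO protease (chromosome 12, 48436681 to 48540187), was at 13.4 and 4.35 FPKM, and SAE1 had a log2 ratio of 1.02. SENP6, another protease, was level at 77.3 and 76.9 FPKM.

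Cholesterol synthesis, uptake and efflux genes, a list that includes targets of SREBP2, had a median of 1.33. Of these, 15 of 27 were higher by 2-fold or more and 0 were lower by as much. MSMO1, a sterol demethylase, was at 471 and 49.1 FPKM, IDI1, the isopentenyl diphosphate isomerase, at 163 and 17.4 FPKM, and HMGCS1, which makes HMG-CoA, at 116 and 22.6 FPKM. NPC1, which exports cholesterol from lysosomes, was at 18.8 and 3.67 FPKM. SCAP, the sterol sensor, was level at 20.5 and 19.4 FPKM. Letters of the sterol regulatory element, searched as TCACNCCAC, were in 1 of 21 windows (4.76%), in 1.49% of measured genes and in 1.39% of the RefSeq table. Of the fatty acid and triglyceride genes, 6 of 29 were higher by 2-fold or more and 5 were lower by as much. Of the 26 that reached the minimum in both groups, 6 were higher and 2 lower, and the other 3 lower genes reached it only with DMSO, among them ACSL5 and GPAM. PDK4, a kinase that inhibits pyruvate dehydrogenase, was at 133 and 16.2 FPKM and SCD, the stearoyl-CoA desaturase, at 90.7 and 17.03 FPKM. ACSL5, an acyl-CoA synthetase, was at 1.88 and 12.8 FPKM and GPAM, the first enzyme of triglyceride synthesis, at 2.45 and 15.4 FPKM. The other lower members were ACACB, FADS3 and ELOVL6, with log2 ratios of −1.44, −1.23 and −1.15. FASN was at 23.2 and 27.2 FPKM.

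Of the glycolysis and hypoxia genes, 10 of 32 were higher by 2-fold or more and 1 was lower by as much, with a median of 0.66. ADM, a vasodilator peptide gene, was at 77.8 and 10.4 FPKM, VEGFA, the endothelial growth factor, at 123 and 17.9 FPKM, and CA9, a carbonic anhydrase and HIF1 target, at 8.58 and 2.204 FPKM. HK2, the first enzyme of glycolysis, was at 12.95 and 6.29 FPKM, whereas PGK1, at 241 and 232 FPKM, and LDHA, at 984 and 809 FPKM, were within 2-fold. CA12 was the lower member, at 15.9 and 32.3 FPKM. Nuclear subunits of oxidative phosphorylation lay in a narrow band with a median of 0.46, and 10 of 60 were higher by 2-fold or more and 0 were lower by as much. NDUFS8 was at 117 and 36.1 FPKM and NDUFB4 at 145 and 49.4 FPKM, both of complex I, while COX7C of complex IV was at 1966 and 1951 FPKM. Mitochondrial ribosomal proteins had a median of 0.39, and 8 of 64 were higher by 2-fold or more and 1 was lower by as much. The range was from 1.53 for MRPL54 down to −1.05 for MRPL50, the lower member. Of 13 genes encoded in mitochondrial DNA, 11 share joined rows, and MT-ND6 and MT-CYB had log2 ratios of 0.07 and −0.34.

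Ribosome biogenesis was the family with the lowest median. Of the MYC and ribosome biogenesis genes, 0 of 40 were higher by 2-fold or more and 10 were lower by as much, with a median of −0.47, and all 40 reached the minimum in both groups. RRP1, of ribosomal RNA processing (chromosome 21, 45209394 to 45225174), was at 11.3 and 46.7 FPKM, and NIP7, of 60S assembly, at 15.3 and 40.7 FPKM. WDR43 was at 69.6 and 194 FPKM and NOP56, a core protein of box C/D particles, at 36558 and 136327 FPKM. NCL, nucleolin, was at 401 and 555 FPKM. Of the 40 genes, 14 hold annotated small RNAs, among them WDR43, NOP56 and NCL, so their values may include reads of these RNAs. The E-box letters CACGTG, a MYC site, were in 37.1% of this family's windows (13 of 35), in 12.9% of measured genes and in 8.77% of the RefSeq table. Cytosolic ribosomal protein genes were at 0.07 in median, a value that was −0.17 with the median of all genes removed and −0.12 as a mean. Of these, 0 of 68 were higher by 2-fold or more and 6 were lower by as much, and 31 hold annotated small RNAs, among them RPL23A, at 3222 and 23543 FPKM, RPL7A, at 65157 and 341438 FPKM, and RPL5, at 4337 and 16914 FPKM. RPL19 was level at 4384 and 4401 FPKM. In the proteasome, which degrades proteins tagged with ubiquitin, 2 of 38 were higher by 2-fold or more and 0 were lower by as much, and the 2 were the assembly chaperone gene PSMG2, at 34.1 and 16.01 FPKM, and PSME4, an activator, at 34.9 and 16.95 FPKM. Among autophagy and lysosome genes, 9 of 42 were higher by 2-fold or more and 1 was lower by as much, and of the 38 that reached the minimum in both groups 5 were higher. ULK1, the initiating kinase, was at 13.1 and 1.33 FPKM, GABARAPL1, of the ATG8 family, at 106 and 25.96 FPKM, and TFEB, the lysosomal transcription factor, at 14.5 and 4.23 FPKM. CTSS, cathepsin S, was the lower one, at 10.2 and 35.6 FPKM.

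**Figure D4:**
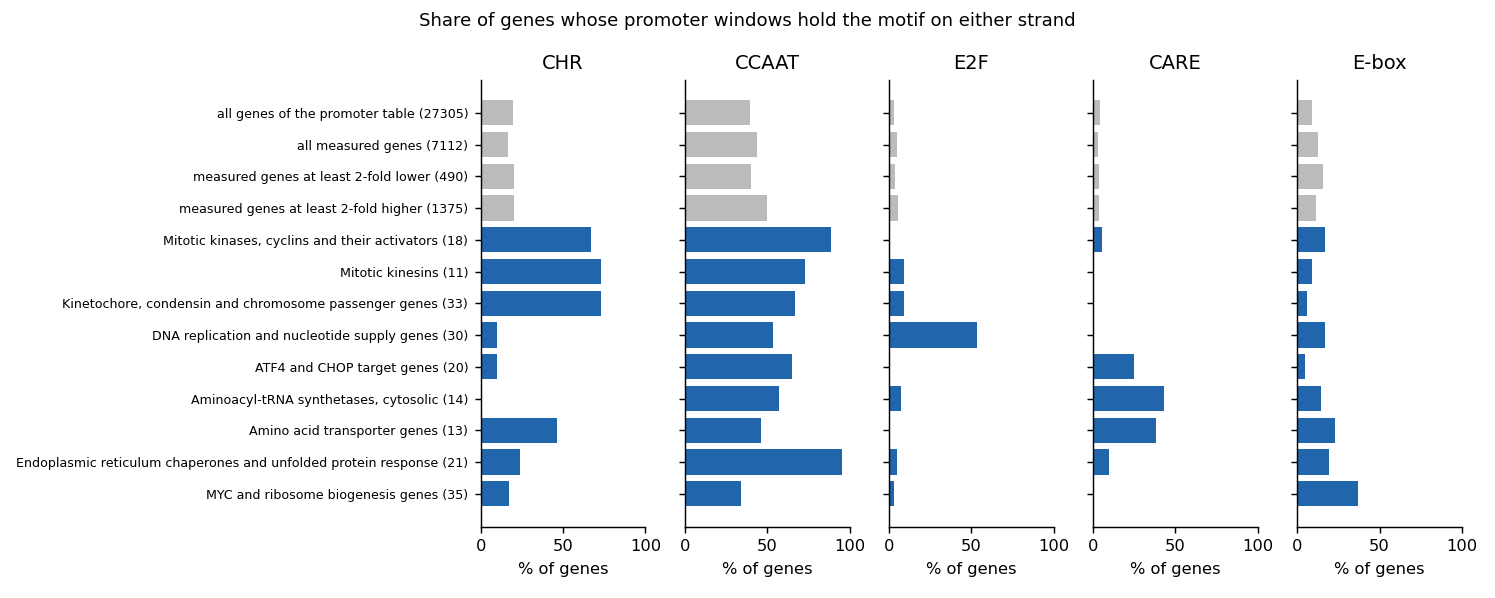
Percentage of genes (horizontal, 0 to 100) whose RefSeq windows of 300 bases hold each motif on either strand, for reference sets (grey) and families (blue), with the number of genes in brackets. CHR letters are in 72.7% of kinetochore and kinesin genes against 16.7% of measured genes, E2F letters in 53.3% of replication genes, and CARE letters in 42.9% of cytosolic synthetase genes.

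Of the Notch receptors, ligands, processing enzymes and cofactors, 4 of 24 were higher by 2-fold or more and 3 were lower by as much, with a median of 0.46. RFNG, a Fringe glycosyltransferase, was at 11.2 and 3.17 FPKM and JAG1, a ligand, at 17.5 and 6.86 FPKM. POFUT1 and NOTCH1, both given above, made up the 4. DTX4 was at 5.32 and 14.3 FPKM, and POGLUT1 and PSEN2 at 7.17 and 16.8 and 17.7 and 36.2 FPKM. NOTCH2, at 7.004 and 6.51 FPKM, and RBPJ, the DNA-binding partner, at 57.6 and 45.2 FPKM, were within 2-fold. Of HES, HEY and other Notch targets, 7 of 12 were higher by 2-fold or more and 0 were lower by as much. Their median was 1.08, and all 12 reached the minimum in both groups. CDKN1A is also on the list of p53 targets and TNFAIP3 on that of NF-kB genes, so this median is not one of Notch output alone. HES2, at 14.6 and 24.1 FPKM, and CCND1 were within 2-fold and below 0. BHLHE40, a repressor of the same helix-loop-helix class (chromosome 3, 4938493 to 5027008), was at 179 and 10.5 FPKM and HES4 at 14.3 and 6.78 FPKM. ID3, an inhibitor of helix-loop-helix factors, was at 51.1 and 15.04 FPKM, and TNFAIP3, a brake on NF-kB, at 84.9 and 38.8 FPKM. NOTCH3, at 0.519 and 0.375 FPKM, did not reach the minimum. Neither did HEY1, at 1.22 and 2.02 FPKM, HEY2, at 0.274 and 0.498 FPKM, and NRARP, at 2.001 and 1.001 FPKM. HES5 was listed at 0 with ginkgolic acid and at 0.680 FPKM with DMSO.

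Keratins are the intermediate filaments of epithelia. Among them, 3 of 12 were higher by 2-fold or more and 2 were lower by as much. KRT16, a keratin of activated epidermis (chromosome 17, 39766030 to 39769005), was at 170.3 and 26.8 FPKM, and the simple-epithelial partners KRT8 and KRT18 at 328 and 108 and 238 and 78.1 FPKM. KRT15 had a log2 ratio of −4.32, and KRT4 was at 2.67 and 10.1 FPKM. The basal pair KRT5 and KRT14 was at 614 and 990.2 and 23.97 and 16.2 FPKM, and KRT6A was level at 265 and 262 FPKM. The 12 basal markers as a set had a median of 0.20, which was −0.041 with the median of all genes removed, and the 3 luminal markers KRT8, KRT18 and EPCAM were all at least 2-fold higher, with a summed level over 10 luminal markers of 799 and 291 FPKM. KRT19 was at 0.325 and 2.42 FPKM, below the minimum and in the other direction. Of the cornified envelope and kallikrein genes, 4 of 11 were higher by 2-fold or more and 2 were lower by as much, and of the 7 that reached the minimum in both groups 2 were higher and 0 lower. CST6, a protease inhibitor of the envelope, was at 22.4 and 3.91 FPKM, SBSN, suprabasin, at 10.8 and 2.34 FPKM, and the kallikreins KLK5 and KLK7 at 28.9 and 11.2 and 63.2 and 26.1 FPKM. KLK6, at 2.28 and 9.29 FPKM, and TGM1, with a log2 ratio of −4.09, were lower and reached the minimum only with DMSO. Of 36 symbols in that list 23 lay under 5 FPKM in both groups. Among S100 genes, S100P was at 214 and 61.9 FPKM and the alarmins S100A8 and S100A9 at 58.1 and 571 and 235 and 825 FPKM. S100PBP, which encodes a binding partner of S100P, was at 44.5 and 15.1 FPKM, and S100A6 was at 3599 and 2887 FPKM.

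Of the transcription factors of epithelial lineage, 3 of 14 were higher by 2-fold or more and 2 were lower by as much, with a median of 0.59 that was −0.019 at a minimum of 10 FPKM. TFAP2A was at 28.6 and 9.15 FPKM, KLF4 at 7.98 and 3.22 FPKM and ELF3 at 396 and 163 FPKM. EHF, an epithelial ETS factor related to ELF3, was at 29.2 and 129 FPKM, and GRHL2, which maintains junctions, at 1.79 and 8.18 FPKM. TP63, the master factor of basal cells, was level at 14.2 and 14.96 FPKM. Some genes of adhesion to the matrix were higher, and of the integrin, laminin and hemidesmosome genes, 7 of 24 were higher by 2-fold or more and 1 was lower by as much. ITGA5, the fibronectin receptor subunit, was at 37.5 and 9.06 FPKM, and its ligand FN1 at 32.7 and 8.65 FPKM. COL17A1, of hemidesmosomes, was at 111 and 279.8 FPKM. Junction genes had the smallest share beyond 2-fold of the epithelial families, where 1 of 19 was higher by 2-fold or more and 1 was lower by as much: EPCAM, at 223 and 91.6 FPKM, and CGN, at 7.22 and 16.7 FPKM. CDH1, E-cadherin, was at 63.9 and 65.8 FPKM. Among genes used to follow epithelial-mesenchymal transition, 6 of 15 were higher by 2-fold or more and 0 were lower by as much. SPARC, a matrix glycoprotein, was at 27.5 and 2.41 FPKM, VIM, vimentin, at 142 and 20.5 FPKM, TAGLN at 17.7 and 2.58 FPKM, and TWIST1 at 65.7 and 27.5 FPKM. Of the 11 that reached the minimum in both groups, VIM, FN1 and TWIST1 were higher.

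Among AP-1 and immediate early genes, 9 of 14 were higher by 2-fold or more and 0 were lower by as much, with a median of 1.10. NR4A1, an orphan nuclear receptor, was at 16.2 and 2.84 FPKM, KLF6 at 85.1 and 16.3 FPKM, and JUNB at 34.8 and 12.4 FPKM. FOS was level at 13.8 and 13.4 FPKM, and JUN was at 15.9 and 9.05 FPKM. Of the dual-specificity phosphatases, 3 of 10 were higher by 2-fold or more and 1 was lower by as much. DUSP1, which dephosphorylates p38 and JNK (chromosome 5, 172185229 to 172204777), was at 395 and 22.8 FPKM, DUSP5, specific for ERK, at 9.49 and 0.454 FPKM, and DUSP10 at 26.3 and 6.79 FPKM. DUSP23 was at 26.5 and 58.3 FPKM. Of the YAP and TGF-beta targets, 6 of 16 were higher by 2-fold or more and 1 was lower by as much. LATS2, the kinase that restrains YAP (chromosome 13, 21547123 to 21635718), was at 13.9 and 3.46 FPKM, and AXL at 6.43 and 2.2002 FPKM. WWC1, the lower one, was at 19.1 and 41.1 FPKM. Of the 12 that reached the minimum in both groups, only FSTL1 and SKIL were at least 2-fold higher. In the urokinase and metalloprotease set, 5 of 11 were higher by 2-fold or more and 2 were lower by as much, and of the 7 that reached the minimum in both groups 4 were higher and 0 lower. PLAU, urokinase, was at 160.1 and 34.5 FPKM and TIMP1, the protease inhibitor, at 125 and 14.03 FPKM. PLAT, tissue plasminogen activator, was at 3.94 and 17.02 FPKM and MMP7, matrilysin, at 0.8095 and 6.51 FPKM. MMP14 and PLAUR were also among the 5 higher members. The EGF receptor ligands NRG4, EREG and HBEGF were at 39.3 and 11.3, 10.2 and 3.41 and 13.5 and 5.001 FPKM. EGFR was at 21.4 and 18.1 FPKM, and the 9 members had a median of 0.24, which was −0.0061 with the median of all genes removed. FGFR1 was at 2.98 and 8.66 FPKM, FGFR2 at 4.09 and 7.36 FPKM, and all 3 measured members of the FGF family, FGFR3 included, reached the minimum only with DMSO.

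Interferon-stimulated genes had a median of −0.31, and 3 of 27 were higher by 2-fold or more and 4 were lower by as much. OASL, an antiviral oligoadenylate synthetase-like protein gene, was at 7.23 and 0.625 FPKM and IFIT1, which binds viral RNA, at 17.1 and 3.04 FPKM. IFI27, the third, was at 8.91 and 3.897 FPKM. MX1, an antiviral GTPase, was at 3.06 and 9.52 FPKM and SAMD9L at 0.872 and 6.88 FPKM, and DDX58, a sensor of viral RNA, at 3.25 and 7.45 FPKM. Of the 20 members that reached the minimum in both groups, 0 were at least 2-fold higher and 1, SAMD9, at 6.93 and 20.9 FPKM, was lower. The NF-kB and cytokine genes split evenly, with 6 higher and 6 lower among 27, and their median of 0.05 was −0.19 with the median of all genes removed and −0.014 as a mean. IL1A was at 57.9 and 15.96 FPKM, ICAM1, an adhesion molecule, at 16.4 and 5.03 FPKM, and NFKBIA, the inhibitor IκBα, at 730.3 and 281 FPKM. The complement gene C3 was at 117 and 561 FPKM, CXCL1, a chemokine for neutrophils, at 7.85 and 28.4 FPKM, and IL32 at 10.3 and 37.6 FPKM. B2M, the light chain of HLA class I, was at 3932 and 4518 FPKM. Of 25 symbols of HLA and antigen processing, 9 are listed more than once and 7 lie in joined rows, so only 8 could be described, and CALR, at 313 and 151 FPKM, was the 1 at least 2-fold higher.

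Protein-coding genes numbered 8334, with 19.2% at least 2-fold higher and 7.22% lower and a median of 0.28. Of 58 small nucleolar and Cajal body RNAs, 6.90% were higher and 51.7% lower, with a median of −1.04, and 29 more were listed at 0 with ginkgolic acid against 10 with DMSO. Small nuclear RNAs were lower in 35.5% of 31. Genes of any type with under 200 exonic bases numbered 141 and were lower in 37.6%. SNHG16, the host of small nucleolar RNAs, was at 28707 and 127495 FPKM, whereas the nuclear RNAs MALAT1 and NEAT1 were at 2469 and 1140.2 and 181 and 75.9 FPKM, and LINC00152 at 10.7 and 4.404 FPKM. The 15 long non-coding RNAs had a median of −0.15, which was 0.070 with no minimum. Zinc finger genes with ZNF symbols on chromosome 19, many of which silence retroelements, ran below the general shift. Of 49, 5 were at least 2-fold higher (ZNF254, ZNF586, ZNF738, ZNF85 and ZNF460) and 11 lower, with a median of −0.25. All 5 higher genes reached the minimum only with ginkgolic acid. Of the 11 lower genes, all but ZNF813 and ZNF146 reached it only with DMSO. Among protein-coding genes, the share at least 2-fold higher was 44.7% for the 94 with up to 1000 exonic bases, 23.5% for 1000 to 2000, and 15.9% for those over 8000. Histones are among the short genes. The genes listed at 0 in a group were mostly of other types than protein-coding. Protein-coding among them were SPP1, AC005702.1 and AC107871.1 at 0 with DMSO, and MT1B, SPINK14, C16orf92, DEFB136 and AL160269.1 at 0 with ginkgolic acid. RNU7-37P, an annotated snRNA copy under 200 bases, was listed at 3507 and 0 FPKM, and the small nucleolar RNA SNORD116-8, also under 200 bases, at 0 and 1363 FPKM.

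In MCF10A, 12.4% of 9534 genes were 2-fold or more above DMSO and 17.1% as far below it. More genes were thus lower than higher there, unlike in NOTCH1-labelled cells. The MCF10A median was −0.19. The tables share no samples. Of the 8765 genes with a ratio in both, 423 were higher in both, which is 27.3% of the 1551 higher in NOTCH1-labelled cells and 42.3% of the 1000 higher in MCF10A. Lower in both were 338, 47.7% of 708 and 25.2% of 1340. Higher in NOTCH1-labelled cells and lower in MCF10A were 75, and 108 the reverse. These counts are to be read against the shares over all 8765 genes. In MCF10A 1000 of them were higher and 1340 lower, and in NOTCH1-labelled cells 1551 and 708. Across genes, which are not independent replicates, Pearson's r of the log2 ratios was 0.38 and Spearman's rho 0.38. KRT16 was among the 75, with a log2 ratio of 2.67 against −2.01 in MCF10A, as was SPARC, with 3.51 against −1.10. PAQR5, RALGAPA1, ANKRD54 and UBAP2 had the widest gaps there beside POFUT1, and each holds annotated small RNAs.

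Family medians were higher in NOTCH1-labelled cells than in MCF10A in 47 of 48 families, and 33 families lay above 0 here and below 0 there, each median being over the genes measured in that table. The HLA and antigen processing genes were the exception to the former. The median of all genes was likewise above 0 here, at 0.24, and below 0 in MCF10A, at −0.19. This offset was not removed, so the counts of families include it. Mitotic kinases had 3.43 against 1.62 and kinesins 3.29 against 1.55. Families above 0 in both included these, kinetochore genes (2.36 against 1.23), histones (2.27 against 0.60), ATF4 and CHOP targets (1.66 against 1.15), recombination and checkpoint genes (1.52 against 0.61) and cholesterol genes (1.33 against 0.47). Families whose medians differed in sign included HES, HEY and other Notch targets, at 1.08 against −0.81. AP-1 genes, at 1.10 against −0.24, and DNA replication genes, at 1.08 against −0.16, were others. Keratins, at 0.32 against −1.97, and cornified envelope genes, at 0.38 against −2.18, did so too. Members did not all differ in direction. In MCF10A, 4 of 11 Notch targets were at least 2-fold higher, BHLHE40 and TNFAIP3 among them, and 4 lower. Of 14 AP-1 genes there, 3 were higher and 2 lower. MYC and ribosome biogenesis genes had medians of −0.47 against −0.52. WEE1 was lower here, at a log2 ratio of −2.08, and had 1.71 in MCF10A. Differences between the lines were not tested.

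**Figure D5:**
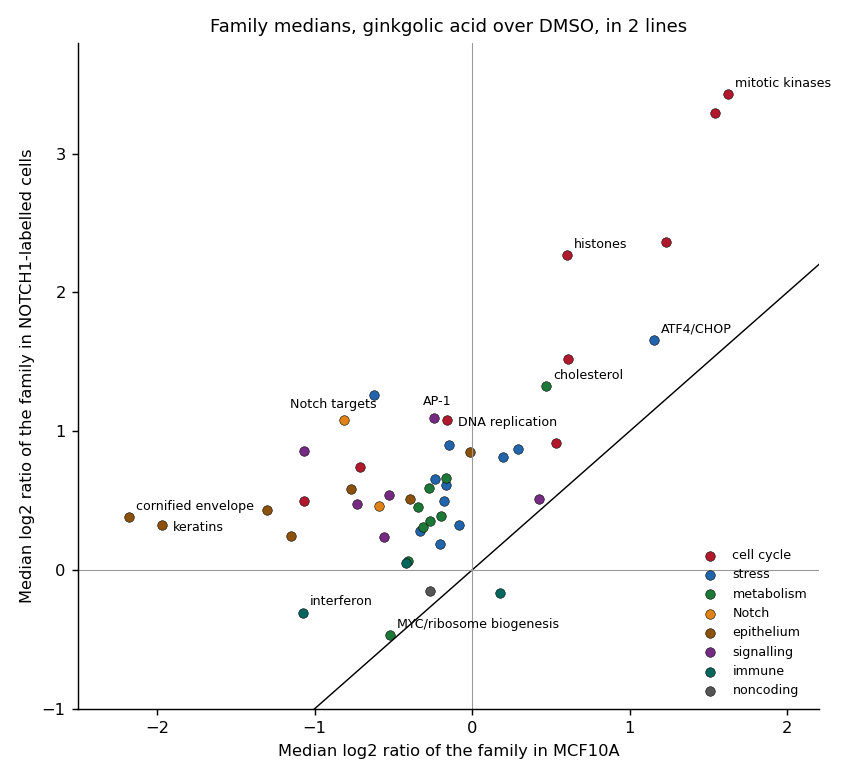
Median log2 ratio of each of the 48 families in NOTCH1-labelled cells (vertical) against the same in MCF10A (horizontal), coloured by theme, each ratio being ginkgolic acid over DMSO within a separately normalized table. The diagonal marks equal medians, and 47 families lie above it, with keratins at 0.32 and −1.97 and mitotic kinases at 3.43 and 1.62. The medians of all genes, 0.24 and −0.19, were not removed.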

How the data were processed

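RNA from RNeasy columns was sequenced as ScriptSeq Complete Gold libraries, per the labels' protocols. The submitters' processing notes name TopHat2 2.0.8b, Bowtie2 2.1.0, Cufflinks 2.1.1, Cuffdiff 2.1.1 and the build hg19 (GRCh37), with no settings. Per the file headers, the 2 deposited tables, 1 per line, hold FPKM with 1 value per gene and group. How the samples of each group were joined into that value is not given in the sources used here. Depth is unknown, and no interval was formed.

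Of 59662 rows, 5455 named no gene and 1570 joined several genes, and both kinds were left out. Genes with at least 5 FPKM in either group were kept. No pseudocount was added before the log2 ratio of treated over DMSO was taken, and "higher" or "lower" means at least 2-fold, with no test. Genes at 0 were counted without a ratio. GENCODE release 29 gave gene types, exon lengths and small RNAs by symbol, and coordinates were copied from the deposited table (hg19). Promoter letters were searched on both strands of RefSeq windows (GRCh38.p14), with 7112 of 9959 genes matched by symbol. Computations used Python 3.11.15, numpy 2.4.6 and pandas 2.3.3, plots matplotlib 3.10.9, and the counting was tested on simulated data.

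The members and lists were chosen with earlier results of these data known. Named genes are the 15 highest and 15 lowest ratios, up to 5 largest and 2 smallest absolute ratios per list, key members set whatever their values, and up to 5 genes at 0 in a group. Chosen after their values were seen were ACACB, BARD1, C12orf5, CA12, DDX58, E2F4, ELOVL6, EXO1, FADS3, GINS3, HES2, HIST4H4, HRK, IFI27, KIF22, KLK7, LIN9, MMP14, MRPL50, MT1B, PLAUR, POGLUT1, PSEN2, RB1, SKIL, SOD2, WEE1, WWC1, ZNF146, ZNF254, ZNF460, ZNF586, ZNF738, ZNF813 and ZNF85, besides SPP1, AC005702.1, AC107871.1, SPINK14, C16orf92, DEFB136, AL160269.1, PTPRC, CD14, PAQR5, RALGAPA1, ANKRD54 and UBAP2. Some genes that the rule takes are left out of the text. The alternatives were other minimums, a pseudocount of 1 FPKM, removal of the median, means, genes that hold small RNAs left out, 1 strand for motifs and, added after seeing the data, another rule for symbols listed once and a minimum of 10 FPKM for the comparison with MCF10A.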

Additional observations from a re-analysis of the deposited data

How the results depend on the processing

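The number of genes at least 2-fold apart depended on the minimum level. A minimum of 1 FPKM gave 3682 higher and 3729 lower, no minimum gave 4797 and 6763, and a minimum of 10 FPKM gave 1527 and 594. With a pseudocount of 1 FPKM the counts were 2046 and 1324, with genes that hold small RNAs left out 1613 and 809, with the median of all genes removed 1381 and 1403, and with the other rule for symbols listed once, added after seeing the data, 1957 and 979. The number of families with a median of at least 1 lay between 8 and 13 over these settings. Family medians near 0 changed sign as follows. With the median removed, amino acid transporters were at −0.053, cytosolic ribosomal proteins at −0.17, the EGF receptor family at −0.0061, NF-kB and cytokine genes at −0.19 and basal markers at −0.041. As means, ribosomal proteins were at −0.12 and NF-kB genes at −0.014. Epithelial lineage transcription factors were at −0.019 with a minimum of 10 FPKM, and long non-coding RNAs at 0.070 with no minimum. Genes higher in both lines numbered 317 at a minimum of 10 FPKM, added after seeing the data, and CHR letters on the strand of the gene alone were in 57.6% of kinetochore genes. No paired analysis was possible because each group has 1 value, and no sample could be left out for the same reason. The number of fragments behind each value is unknown.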
